A study of Mus musculus with 14 samples.

Results

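The 34 genes described here mark endothelial cells, the cells that line blood and lymph vessels. They were taken by symbol from a list of endothelial genes and looked up in 2 tables of raw counts, one of 4T1 tumours (13414 genes) and one of cultured 4T1 cells (11793 genes). The tumour table lists 33 of the 34, all but Clec14a, and the table of cultures lists 15. 4T1 is a mouse mammary carcinoma line. Its shTAZ derivative carries a lentiviral hairpin RNA against TAZ, the protein of the Wwtr1 gene, and its shC derivative carries a scrambled hairpin, both switched on by doxycycline.

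The tumours were 4 from shTAZ cells and 4 from shC cells, grown in the mammary fat pad of female BALB/c mice that were 8 weeks old, fed doxycycline chow and sampled 6 weeks after injection. The cultures were 3 of shTAZ and 3 of shC cells, treated with doxycycline for 48 h. Per the labels the genotype of every sample was wild type and no treatment was given, so the doxycycline is known from the study's methods. The hairpins act in the injected tumour cells, while the vessels of the tumour come from the host, which carried no hairpin. Nothing in the labels says that the cultures were started separately, so the p-values for cultures may measure technical spread.

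Endothelial cells hold vessels together through junction proteins such as VE-cadherin and PECAM-1. They respond to VEGF through receptor kinases on their surface, and new sprouts are led by tip cells that carry the Notch ligand Dll4 and are stabilised by signals through the angiopoietin receptors. TAZ is a transcriptional coactivator of the Hippo pathway that binds DNA through TEAD proteins. Transcription factors of the ETS family, ERG among them, bind sequences with a GGAA core in many endothelial promoters and enhancers.

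The hairpin sequences are shown because they define the groups, with bases that match a mouse transcript in capitals.
shTAZ: GACGGGTGGAGGTTCACAT
shC: cacacaacatgtaaaccaggga
The 19 bases of the shTAZ hairpin occur, in antisense orientation, in 2 transcripts of the GENCODE annotation, both of Wwtr1. The 22 bases of the shC hairpin occur in 0 mouse transcripts. Wwtr1 (chr3:57455649-57575910, GRCm38) was at 22.1, 13.4, 17.5 and 25.5 CPM in shTAZ tumours 1 to 4, against 59.9, 29.2, 43.1 and 27.5 CPM in shC tumours 1 to 4, where CPM are counts relative to the normalized library size. Every shTAZ tumour lay below every shC tumour, in a comparison where the groups did not overlap for 2.39% of all tested genes. The log2 fold change was −1.03 (SE 0.30), with an adjusted p of 0.923 from the quasi-likelihood test of edgeR. That test is behind every adjusted p below unless another is named. Tumour RNA also includes RNA of host cells, so these values do not measure the knockdown in tumour cells alone. In the cultures Wwtr1 was at 8.12, 10.5 and 6.02 CPM in shTAZ cells, against 40.6, 29.7 and 25.4 CPM in shC cells, a log2 fold change of −2.25 (SE 0.35) with an adjusted p of 0.0647 that was 0.00539 with the replicate number as a block.

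The total count per library was 1659736 to 3179767 in shTAZ tumours and 2282612 to 22364483 in shC tumours, where the shC tumours other than tumour 1 had at most 2968827. The cultures had 2243071 to 7959163 counts in shTAZ cells and 6820673 to 14815813 counts in shC cells. Pecam1, Cdh5 and Tie1 had counts in all 8 tumours. 3 tumours stood apart by epidermal or urothelial genes. The summed level of 9 genes of epidermal keratinization was 3862 CPM in shTAZ tumour 3 and 2062 CPM in shTAZ tumour 4, against 16.4 to 40.2 CPM in the other tumours, and 5 urothelial genes summed to 663.9 CPM in shC tumour 2, against at most 5.52 CPM elsewhere. Adipocyte genes summed to 516.7 CPM in shTAZ tumour 2 and 624.3 CPM in shC tumour 2, against 55.6 to 120.1 CPM in the other tumours. Fits below without the 3 tumours keep shTAZ tumour 2.

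Promoter sequence was available for 18 of the 34 genes (22 start sites, RefSeq on GRCm38.p6). In windows from 250 bases before to 50 bases after the start, the ETS-type hexamer CAGGAA, read on either strand (TTCCTG on the other), occurred in 14 of 22 windows (63.6%), against 30.6% of 32851 windows of all genes. The other ETS-type hexamer searched, CCGGAA, occurred in 4.55% of the windows of endothelial genes against 14.9% of all. The SOX-type letters ACAAT were in 31.8% against 31.0%, the FOX-type letters TAAACA in 13.6% against 13.4%, and the TEAD-type letters GGAATG, which can overlap CAGGAA by their GGAA core, in 18.2% against 14.7%. A match of this kind is a string of letters and no evidence of binding. The 250 bases before the start are given for 4 genes, with CAGGAA or TTCCTG in capitals. Tie1 was listed in tumours alone, Esm1 had the widest range between tumours of the tested genes with counts in every tumour, Apln was also measured in the cultured cells, and Flt1 ran against the order of tumours seen for most of the genes.
Tie1 (chr4:118489850-118490099, minus strand): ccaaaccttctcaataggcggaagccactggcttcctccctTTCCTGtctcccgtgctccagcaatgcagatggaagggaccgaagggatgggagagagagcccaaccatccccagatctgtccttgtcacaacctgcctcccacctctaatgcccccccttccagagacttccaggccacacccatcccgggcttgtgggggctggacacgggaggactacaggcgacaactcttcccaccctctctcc
Esm1 (chr13:113209409-113209658, plus strand): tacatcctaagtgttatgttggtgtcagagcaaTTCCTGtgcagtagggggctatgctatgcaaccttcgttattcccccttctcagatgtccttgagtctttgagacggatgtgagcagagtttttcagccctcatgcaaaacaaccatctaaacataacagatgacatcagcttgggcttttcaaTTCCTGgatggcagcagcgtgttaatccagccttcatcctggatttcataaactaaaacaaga
Apln (chrX:48034854-48035103, minus strand): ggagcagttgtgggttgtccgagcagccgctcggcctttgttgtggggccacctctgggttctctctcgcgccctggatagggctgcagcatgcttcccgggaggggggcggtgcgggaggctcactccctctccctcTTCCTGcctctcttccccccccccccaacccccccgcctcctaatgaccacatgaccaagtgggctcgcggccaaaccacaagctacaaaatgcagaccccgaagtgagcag
Flt1 (chr5:147726012-147726261, minus strand): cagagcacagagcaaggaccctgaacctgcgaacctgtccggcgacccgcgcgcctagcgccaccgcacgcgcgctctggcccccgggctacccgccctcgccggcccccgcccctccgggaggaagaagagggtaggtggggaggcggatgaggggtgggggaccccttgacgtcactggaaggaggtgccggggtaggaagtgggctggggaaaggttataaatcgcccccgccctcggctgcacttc
The Esm1 window holds 2 matches, those of Tie1 and Apln hold 1 each, and that of Flt1 holds 0.

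The question put to the tumours was whether TAZ knockdown in the tumour cells went with a different level of endothelial transcripts. No gene of the list passed the test. Of the 33 listed genes 28 passed the expression filter, and 0 of 28 had an adjusted p under 0.05, in a comparison where 0% of 9196 tested genes did (adjusted p 0.923 to 0.999 for the 28 genes). At an unadjusted p under 0.05 the count was also 0 of 28, against 3.98% of all tested genes, and DESeq2 called 0 of the 28 and 0.0435% of all. The log2 fold change, shTAZ over shC, lay below 0 for 24 of the 28 genes, against 51.5% of all tested genes, and its median was −0.27, against −0.01 over all. The groups overlapped for each of the 28 genes, while 2.39% of all tested genes did not overlap.

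The tilt to lower values depended on which tumours were compared. Without shC tumour 1, the most deeply sequenced, 12 of the 28 fold changes lay below 0 and their median was 0.02. Without shC tumour 3 the median was −0.47, with 27 below 0. Without the 3 tumours that held epidermal or urothelial genes it was −0.15, with 22 below 0. Within the pair of tumours of each group whose library codes begin with FG the median was −0.32, with 23 below 0, and within those that begin with FM, which leave out shC tumour 1, it was −0.24, with 21 below 0. In bulk RNA, fewer endothelial cells and less RNA per endothelial cell cannot be told apart.

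**Figure D1:**
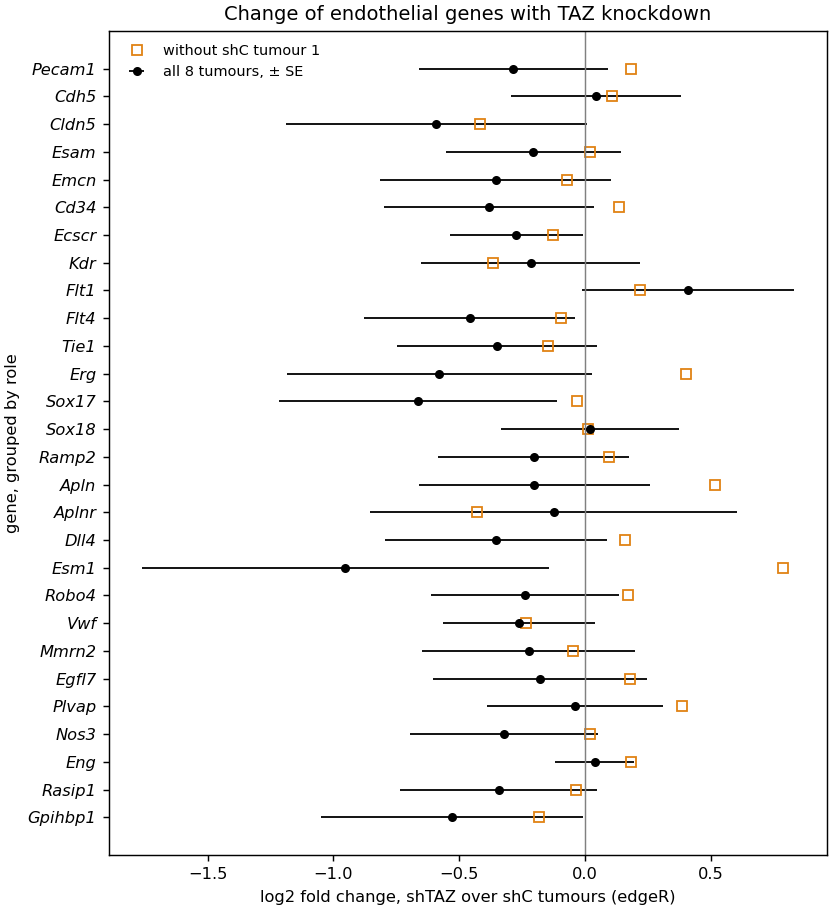
Log2 fold change (shTAZ over shC tumours, horizontal axis) of the 28 tested endothelial genes, from edgeR; black points with bars are estimates ± SE from 8 tumours, and open squares are estimates without shC tumour 1. All 28 genes had an adjusted p of 0.923 or more, and without shC tumour 1 only 12 squares lie left of 0.

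The spread between tumours of the same group was wider than the difference between groups. The 18 genes that are not listed for the cultures, which include Kdr, Tie1, Cldn5, Erg and Gpihbp1, summed to 633.9, 310.0, 172.1 and 411.1 CPM in shTAZ tumours 1 to 4, against 786.6, 352.0, 222.9 and 712.7 CPM in shC tumours 1 to 4. In both groups tumour 1 was highest, followed by tumours 4, 2 and 3, and the highest of the 8 was 4.57 times the lowest. The log2 ratio of the group means of this sum was −0.44. With each tumour left out in turn, a step chosen after seeing the data, it ranged from −0.80 (without shTAZ tumour 1) to −0.17 (without shC tumour 1). The replicate numbers do not pair the tumours by any label. Over all 33 listed genes the sums were 1056 to 2096 CPM in shTAZ tumours and 989.4 to 2694 CPM in shC tumours, a log2 ratio of the group means of −0.19 that was 0.08 without shC tumour 1.

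**Figure D2:**
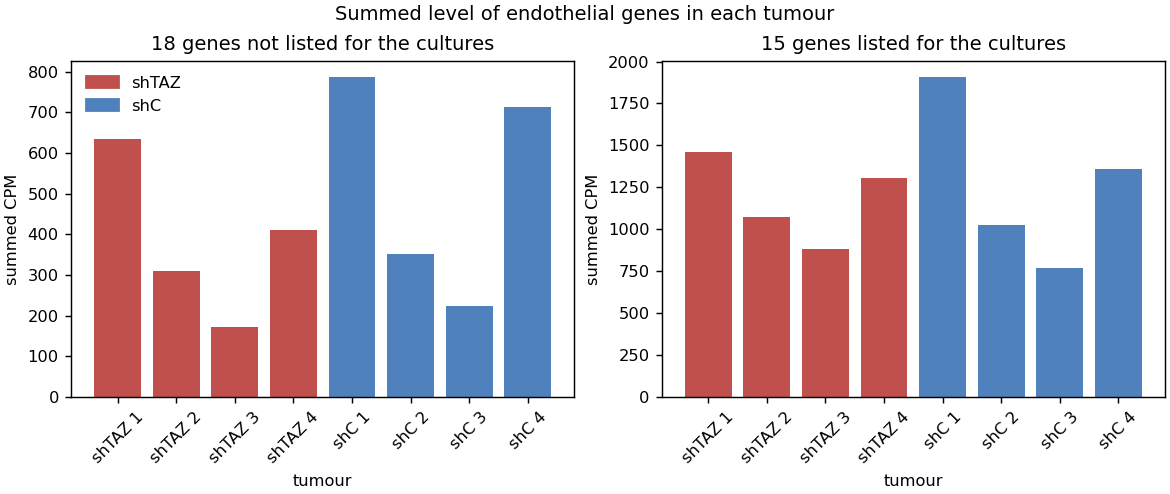
Summed CPM (vertical axis, from 0) of the 18 endothelial genes not listed for the cultures (left) and the 15 listed for them (right) in each of the 8 tumours, shTAZ red and shC blue. On the left shTAZ tumour 3 (172.1 CPM) and shC tumour 3 (222.9 CPM) are lowest and shC tumour 1 (786.6 CPM) is highest, so that the groups overlap.

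The genes shared this order of tumours widely. Of the 28 tested genes, 20 had their highest CPM in shC tumour 1 (21.3% of all tested genes did), 12 had their lowest in shTAZ tumour 3 (14.7% of all) and 12 had their lowest in shC tumour 3 (10.1% of all). Each of the tumours numbered 3 was among the lowest 2 of the 8 tumours for 23 of the 28 genes. shTAZ tumour 1 was among the highest 2 for 15 genes and shC tumour 4 for 11. Values of other cell types differed between the same tumours. The 9 genes of epidermal keratinization were at 3862 CPM in shTAZ tumour 3 but at 16.4 CPM in shC tumour 3, the lowest of all tumours. The 11 macrophage genes summed to 6110 CPM in shTAZ tumour 1 and to 3637 and 4072 CPM in shC tumours 1 and 4, the lowest 3 of the 8 tumours. Their part in the endothelial values was not tested.

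**Figure D3:**
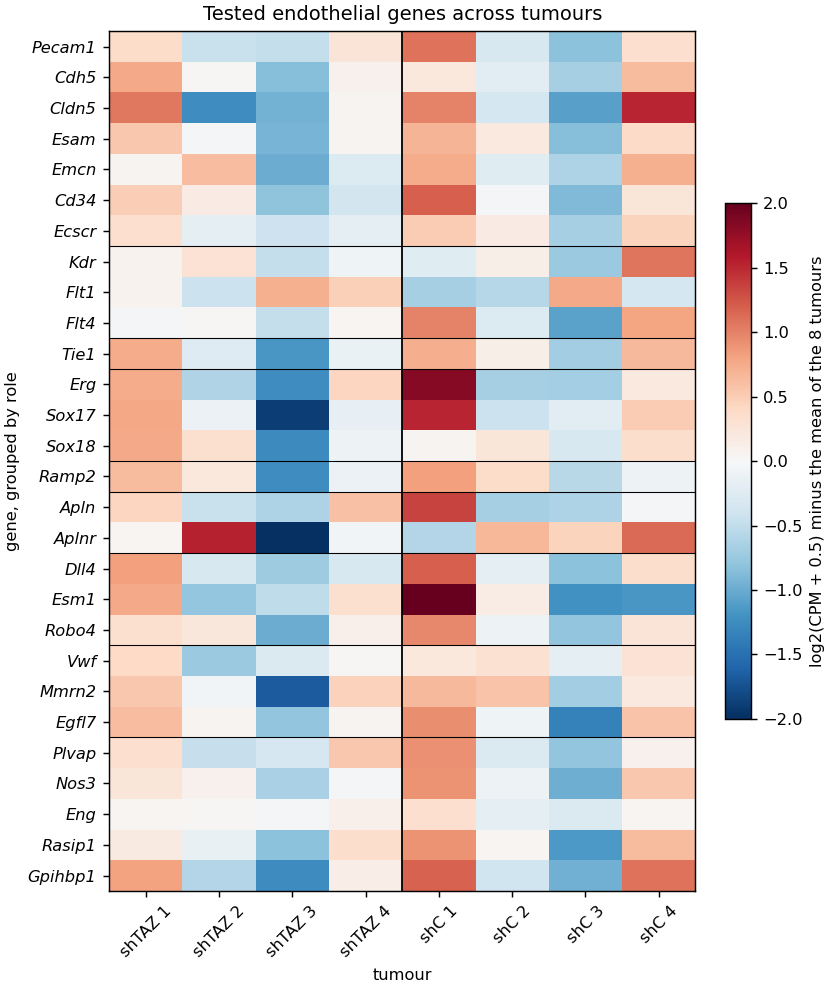
Level of the 28 tested endothelial genes (rows, grouped by role) in the 4 shTAZ and 4 shC tumours (columns), as log2(CPM + 0.5) minus the mean of the gene over the 8 tumours. Columns shTAZ 3 and shC 3 are blue for most rows, shC 1 is red for most, and Flt1 shows the opposite.

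The junction and surface genes were lowest in one of the tumours numbered 3 for 6 of 7 tested genes, and none passed the test. Cdh5, which encodes VE-cadherin, was at 157, 94.4, 51.3 and 98.95 CPM in shTAZ tumours 1 to 4, against 108, 80.4, 58.6 and 144 CPM in shC tumours 1 to 4. Its log2 fold change was 0.04, with a 95% interval of −0.62 to 0.71. Pecam1, the gene of the adhesion protein CD31, was at 116, 65.8, 64.5 and 107 CPM in shTAZ tumours and 192, 72.1, 50.9 and 113 CPM in shC tumours. Its fold change was −0.29 on the log2 scale (SE 0.38) and 0.18 without shC tumour 1. Cldn5, a tight junction claudin, had one of the wider ranges, with 129, 26.00, 31.9 and 64.1 CPM in shTAZ tumours and 124, 48.7, 28.9 and 179.9 CPM in shC tumours. Its highest value was 6.92 times its lowest, and its log2 fold change of −0.59 had an SE of 0.60. Esam, Emcn and Cd34, which encode an adhesion molecule and a pair of surface sialomucins, had log2 fold changes of −0.21, −0.36 and −0.38, and Ecscr, a regulator of endothelial migration, had one of −0.27. Ptprb, a phosphatase that acts on VE-cadherin and Tie2, was too low to be tested. It had 4, 0, 1 and 3 counts in shTAZ tumours, against 71, 4, 7 and 4 counts in shC tumours, and its CPM lay lower in each shTAZ tumour than in each shC tumour, as they did for 1.26% of all listed genes.

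Of the VEGF receptors, only Flt1 had a fold change above 0, and it ran against the other genes across tumours. Kdr encodes VEGFR2, the main signalling receptor for VEGF-A, and was at 5.69, 6.71, 3.76 and 5.10 CPM in shTAZ tumours, against 4.52, 5.92, 3.02 and 11.9 CPM in shC tumours. Its log2 fold change of −0.22 (SE 0.43) was −0.42 to 0.25 when each tumour was left out in turn. Flt4, the gene of VEGFR3, was at 12.96, 13.4, 9.39 and 13.6 CPM in shTAZ tumours and 26.7, 10.8, 6.04 and 23.1 CPM in shC tumours, with a log2 fold change of −0.46 (SE 0.42). Flt1, whose product VEGFR1 binds VEGF-A and can act as a decoy, was at 7.90, 5.45, 12.5 and 10.6 CPM in shTAZ tumours 1 to 4, against 4.52, 4.87, 12.9 and 5.78 CPM in shC tumours 1 to 4. In each group the tumour numbered 3, lowest for most endothelial genes, was the highest for Flt1. Its log2 fold change was 0.41 (SE 0.42, adjusted p 0.928), and −0.16 without the 3 tumours that held epidermal or urothelial genes.

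The angiopoietin receptors were measured unevenly. Tie1, an orphan receptor kinase that partners Tie2, was at 53.1, 26.4, 13.8 and 28.9 CPM in shTAZ tumours, against 52.8, 34.5, 19.4 and 49.8 CPM in shC tumours. Tumours 1 and 4 of shC and tumour 1 of shTAZ were highest, and the log2 fold change was −0.35 (SE 0.40). Tek, the gene of Tie2, had 0 to 9 counts per library outside shC tumour 1, which had 111, and was not tested.

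The endothelial transcription factors had some of the widest ranges, and shTAZ tumour 3 was the lowest of the 8 for all 3 tested. Erg, an ETS factor, was at 28.5, 10.9, 6.88 and 22.9 CPM in shTAZ tumours, against 60.99, 10.4, 10.3 and 19.5 CPM in shC tumours. The log2 fold change of Erg was −0.58 (SE 0.61), and 0.40 without shC tumour 1. Sox17, a SOX factor of arterial endothelium, was at 18.3, 9.65, 2.50 and 9.34 CPM in shTAZ tumours and 31.1, 7.66, 9.05 and 15.2 CPM in shC tumours, a 12.4-fold range. The log2 fold change of −0.66 (SE 0.55, adjusted p 0.923) was −0.03 without shC tumour 1. Sox18, its relative in vascular and lymphatic development, was at 45.2, 33.1, 10.6 and 24.6 CPM in shTAZ tumours and 27.4, 31.3, 21.1 and 33.95 CPM in shC tumours, and its log2 fold change was 0.02 (SE 0.35). Sox7 had 1 to 8 counts per tumour outside shC tumour 1 and was not tested.

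Genes of the adrenomedullin and apelin systems gave no call. Ramp2, which makes the calcitonin receptor-like receptor a receptor for adrenomedullin, was at 56.3, 41.9, 15.02 and 33.5 CPM in shTAZ tumours and 64.2, 46.7, 24.6 and 33.6 CPM in shC tumours, with a log2 fold change of −0.20 (SE 0.38). Calcrl, the receptor itself, had 1 to 5 counts per library outside shC tumour 1, which had 122. Apln, the gene of the peptide apelin, was at 101, 54.5, 48.2 and 112 CPM in shTAZ tumours, against 192, 47.00, 48.3 and 72.2 CPM in shC tumours. shC tumour 1 was highest, and the log2 fold change of −0.20 (SE 0.46) was 0.52 without it. Aplnr, the apelin receptor, was at 4.11, 12.6, 0 and 3.82 CPM in shTAZ tumours, against 2.51, 6.62, 5.60 and 9.39 CPM in shC tumours, and thus lowest in shTAZ tumour 3, where 0 counts allow up to 1.88 CPM. Its log2 fold change of −0.13 had the second widest SE of the tested genes, 0.73.

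Among genes of sprouting and guidance, Esm1 varied most between tumours. Esm1, a secreted proteoglycan gene used as a tip cell marker (chr13:113209659-113218098, GRCm38), was at 8.22, 2.52, 3.13 and 5.95 CPM in shTAZ tumours 1 to 4, against 27.1, 5.22, 1.72 and 1.81 CPM in shC tumours 1 to 4. The value in shC tumour 1 was above all others, and the range was 15.7-fold. Its log2 fold change was −0.95 (SE 0.81, adjusted p 0.923) and 0.79 without shC tumour 1, where the remaining tumours had at most 26 counts each. Dll4, the Notch ligand of tip cells, was at 58.5, 26.4, 20.03 and 26.3 CPM in shTAZ tumours, against 76.8, 28.9, 18.5 and 42.3 CPM in shC tumours. Each group had its tumour 1 highest, and the log2 fold change was −0.35 (SE 0.44). Robo4, an endothelial member of the Robo receptor family, was at 44.3, 41.1, 17.5 and 37.8 CPM in shTAZ tumours and 69.4, 32.7, 20.3 and 42.3 CPM in shC tumours. For Robo4 the log2 fold change was −0.24 (SE 0.37).

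The genes of matrix and secreted products and of caveolae and signalling gave the steadiest and some of the most variable values of the list. Eng, which encodes the TGF-β coreceptor endoglin, was at 419.9, 417, 397 and 440.0 CPM in shTAZ tumours, against 517, 357, 336 and 419.7 CPM in shC tumours. Its range was 1.54-fold and its log2 fold change 0.04, with a 95% interval of −0.27 to 0.35. Gpihbp1, the protein that holds lipoprotein lipase on capillaries, spanned 5.46-fold, at 224, 84.7, 53.2 and 139.7 CPM in shTAZ tumours and 290.4, 96.8, 65.1 and 271 CPM in shC tumours. The fold change of Gpihbp1 was −0.53 on the log2 scale (SE 0.52) and −0.18 without shC tumour 1. The sum of 8 adipocyte genes was 516.7 CPM in shTAZ tumour 2 and 624.3 CPM in shC tumour 2, against 55.6 to 120.1 CPM in the other tumours. One of them, Fabp4, is also counted among the further endothelial genes below. The part of fat tissue in the Gpihbp1 values was not tested. Plvap, a protein of endothelial fenestrae, was at 181, 105, 115 and 209 CPM in shTAZ tumours and 270.4, 117, 83.2 and 153 CPM in shC tumours. The log2 fold change of Plvap was −0.04 (SE 0.35). For Nos3, the endothelial nitric oxide synthase, it was −0.32, and for Rasip1, a regulator of vessel lumen formation, it was −0.34. Vwf, the gene of von Willebrand factor, which platelets also carry, was at 14.5, 6.29, 8.76 and 11.04 CPM in shTAZ tumours and 12.7, 13.6, 9.48 and 13.4 CPM in shC tumours, with a log2 fold change of −0.26 (SE 0.30). Mmrn2, an extracellular matrix protein of vessels, and Egfl7, a secreted factor whose gene hosts Mir126a, had log2 fold changes of −0.22 and −0.18.

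Of 8 genes used as lymphatic markers 5 are listed for tumours and 2 were tested, Flt4 (above) and Nrp2, neither of which is restricted to lymphatic vessels. Nrp2, a coreceptor for semaphorins and VEGF-C, was at 254, 201, 253 and 289.6 CPM in shTAZ tumours and 279, 263, 275 and 154 CPM in shC tumours, with a log2 fold change of 0.04 (SE 0.20). Lyve1, a hyaluronan receptor of lymphatic endothelium that some macrophages also carry, had 0, 1, 0 and 3 counts in shTAZ tumours, against 6, 7, 1 and 0 counts in shC tumours, and was not tested. Pdpn (0.42 to 5.52 CPM) and Reln (0 counts outside shC tumour 1, which had 8) were not tested either, and Prox1, Mmrn1 and Ccl21a are not listed for tumours.

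No other gene of the vessel wall passed the test in tumours. Of 54 further endothelial genes 35 were tested, 28 with a log2 fold change below 0 (51.5% of all tested genes were) and 7 above, with a median of −0.16 and 0 called. One of the 35 had an unadjusted p under 0.05, against 3.98% of all, and groups that did not overlap, against 2.39% of all. This was Stab1, a scavenger receptor gene of sinusoidal endothelium and of macrophages, at 162, 148, 158 and 166 CPM in shTAZ tumours and 110.5, 125, 109.9 and 74.05 CPM in shC tumours. The fold change of Stab1 was 0.59 on the log2 scale (SE 0.17), and its adjusted p was 0.923. Col4a1, a collagen chain of the vessel basement membrane and of other basement membranes, averaged 579 ± 239.5 CPM in shTAZ tumours and 750.4 ± 263 CPM in shC tumours (SD, n = 4 each), a log2 fold change of −0.37 (SE 0.35). For Col4a2, its partner chain, the log2 fold change was −0.52 (SE 0.36). Of 15 listed genes of angiogenic ligands, among them the genes of the inhibitors Thbs1 and Thbs2, 11 were tested, 9 below 0 and 2 above, and 0 were called. The median log2 fold change of the 11 was −0.35, with a range of −1.75 to 0.19. The 2 above 0 were Vegfa and Vegfb. Vegfa averaged 104 ± 61.4 CPM in shTAZ tumours and 91.5 ± 24.5 CPM in shC tumours (SD, n = 4 each), with a log2 fold change of 0.19 (SE 0.35). Vegfb had one of 0.19 and Pdgfb, which recruits pericytes, one of −0.12. Of 18 genes of mural cells, the pericytes and smooth muscle around vessels, 14 were tested and 0 were called. Their summed level was 287.9 to 679.4 CPM in shTAZ tumours and 310.0 to 690.3 CPM in shC tumours 1, 3 and 4, against 6331 CPM in shC tumour 2, the tumour with urothelial genes. Tagln, a smooth muscle gene, averaged 82.7 ± 25.4 CPM in shTAZ tumours and 861 ± 1517 CPM in shC tumours (SD, n = 4 each).

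The cultured cells served as a background without vessels. Of the 33 genes, 18 are not listed for the cultures, where the lowest total count of a listed gene was 6. The 15 listed genes summed to 296.3 to 423.1 CPM in the 6 cultures and to 766.5 to 1907 CPM in the 8 tumours. The tables were normalized separately, so levels are set side by side here without a test. For most of the 15 genes the cultures were far below the tumours. Cdh5 was at 0.955, 0 and 0.236 CPM in shTAZ cells and 0, 0.652 and 0 CPM in shC cells, Pecam1 reached 1.26 CPM at most and Plvap 2.87 CPM. Esam, Cd34, Ramp2 and Rasip1 each stayed under 2 CPM in every culture. Calcrl, with at most 1.93 CPM in the cultures, overlapped the tumours, which had 0.42 to 5.10 CPM.

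A few genes of the list had clear levels without any endothelium. Flt1 was at 59.2, 68.1 and 35.9 CPM in shTAZ cells and 48.5, 30.4 and 35.5 CPM in shC cells, so that every culture exceeded every tumour, of which the highest had 12.9 CPM. Eng was at 218, 144 and 172 CPM in shTAZ cells, against 176, 159 and 179 CPM in shC cells. This was below the lowest tumour, which had 336.3 CPM. Apln was at 73.5, 87.4 and 32.5 CPM in shTAZ cells and 69.4, 53.4 and 59.4 CPM in shC cells, a range that overlaps the 47.0 to 191.6 CPM of the tumours. Egfl7 was at 14.7 to 38.5 CPM, Dll4 at 2.76 to 22.9 CPM, Ecscr at 5.96 to 13.4 CPM and Nos3 at 1.69 to 6.05 CPM in the cultures. For Egfl7 and Dll4 these ranges overlap the tumours, which had 30.2 and 18.5 CPM at the lowest. For Ecscr and Nos3 every culture lay below every tumour. How much of the tumour counts of these 7 genes came from tumour cells was not tested.

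**Figure D4:**
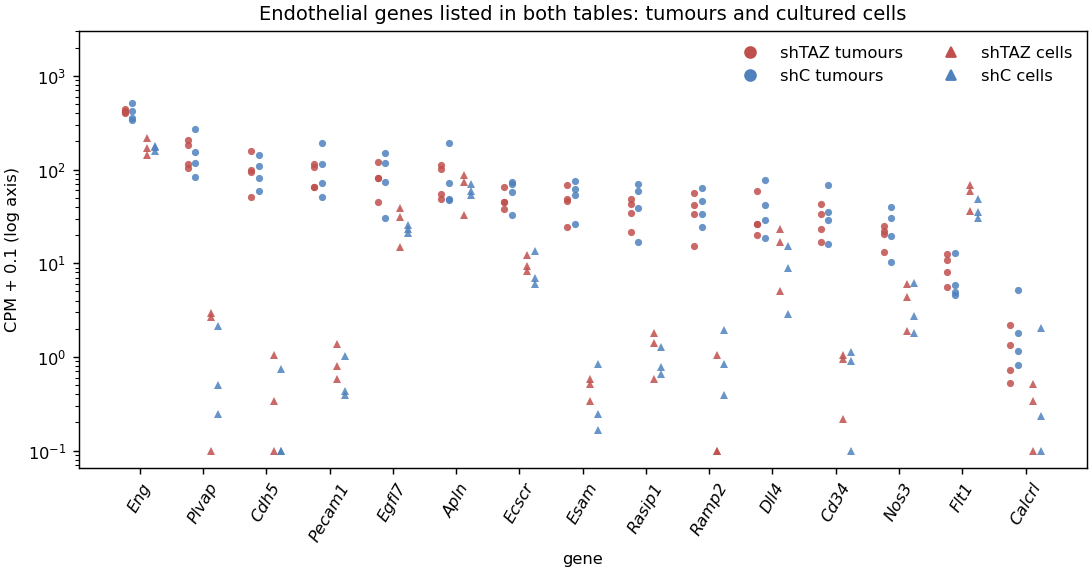
CPM plus 0.1 (log axis) of the 15 endothelial genes listed in both tables, ordered by their mean in tumours; circles are tumours and triangles cultures, shTAZ red and left of shC in blue. The triangles lie far below the circles for Cdh5 and Pecam1, above them for Flt1 and among them for Apln.

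TAZ knockdown in culture gave no call for these genes either. Of the 15 listed genes 8 passed the filter, and 0 of 8 had an adjusted p under 0.05, where 0% of 9828 tested genes did. At an unadjusted p under 0.05 the count was 0 of 8, against 5.05% of all, and DESeq2 called 0.0305% of all genes and 0 of the 8. With 1 surrogate variable in the model the log2 fold change was 0.16 for Flt1 (SE 0.29), 0.01 for Eng (SE 0.25) and −0.44 for Apln (SE 0.30). The median of the 8 was 0.09, with 3 of 8 below 0, against 51.7% of all tested genes. The 3 below 0, Apln, Nos3 and Dll4, had a higher mean CPM in shTAZ than in shC cells (64.5 against 60.7 for Apln). Without the surrogate variable, which came from counts not scaled to library size, 0 of the 8 lay below 0. With the replicate number as a block in place of the surrogate variable, 0.0611% of all genes and 0 of the 8 were called, the median of the 8 was 0.21 with 1 of 8 below 0, and Nos3, at −0.51 (SE 0.72) with the surrogate variable, was 0.21 (SE 0.58). The groups overlapped for each of the 8, while 5.57% of all tested genes did not overlap.

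Dll4 depended on how the cultures were modelled. It was at 22.9, 16.8 and 4.96 CPM in shTAZ cells 1 to 3, against 15.1, 8.75 and 2.76 CPM in shC cells 1 to 3. The shTAZ culture was the higher one within each replicate number, while the groups overlapped. The log2 fold change was −0.26 (SE 0.40) with the surrogate variable and 0.79 (SE 0.35, edgeR adjusted p 0.860) with the replicate number as a block.

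The last comparison asked whether the change in tumours differed from that in cultures. Over all 14 libraries and 9194 genes, an interaction term of edgeR had an adjusted p under 0.05 for 0% of genes, and for 0 of the 14 endothelial genes in the fit, of which 8 had passed the filter in both tables. This model held no surrogate variable, so its change in cells is not the one given above. At an unadjusted p under 0.05 it passed for 2.47% of all genes and for 0 of the 14. The difference, change in tumours minus change in cells, had a median of −0.41 on the log2 scale over the 8 genes. It was −1.05 for Dll4 (SE 0.85), −1.17 for Plvap (SE 0.93) and 0.00 for Eng (SE 0.27). Of the 6 genes that were too low for a test in cultures, Rasip1 was at −0.97 (SE 0.76), Pecam1 at −0.82 (SE 0.88) and Ramp2 at 0.70 (SE 0.98).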

How the data were processed

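RNA of 8 tumours and 6 cultures was sequenced by a bulk form of MARS-seq, which counts the 3′ ends of transcripts. The authors trimmed reads with cutadapt, mapped them to GRCm38 (mm10) with STAR and counted them per gene with HTSeq, and the raw counts deposited in 2 tables were used. The other 34 columns with per-sample values were not used, nor were the columns of fold changes and p-values of the authors' own DESeq2 comparisons. Samples were grouped by their titles. The authors made the tables separately, and they were tested separately except for the interaction term, for which the genes in both were joined in one fit with no surrogate variable.

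Genes were filtered with filterByExpr (minimum count 10), normalized by TMM and tested with the quasi-likelihood test of edgeR 4.0.16 in R 4.3.3, with Benjamini-Hochberg adjustment over all tested genes at 0.05. CPM are counts scaled to the TMM library size, and intervals are 1.96 SE to each side. Each fit was run on simulated counts with the same dispersion for all genes and with no batch or outlying library. Such a run cannot show how the fits behave with the uneven tumours here. For cultures the model held 1 surrogate variable from svaseq (sva 3.50.0) and no block. It was taken from counts that were not scaled to library size. The study names the sva package for its cultures, but its methods do not give the number of variables. Deviations of same-numbered cultures from their group means had correlations over genes of 0.31, 0.18 and 0.60, against −0.51 to 0.22 for differently numbered ones. shTAZ culture 2 was closer to shC culture 1 (0.22) than to shC culture 2 (0.18). The replicate numbers of the labels were taken to pair the cultures in the alternative with a replicate block. The main model does not use this pairing. Alternatives were DESeq2 1.42.0, RLE size factors, other filters, blocks, batch terms and left-out libraries. The members, the other gene lists and the tests were chosen with earlier results of these data known. Named genes are the 34 members, Wwtr1 and the 3 genes with the highest mean CPM of each other list, most of which are given here only within the sums or counts of their lists. Prox1, Mmrn1, Ccl21a, Pdpn, Reln, Stab1, Thbs1 and Thbs2 are named outside this rule, after their values were seen. Positions are from GENCODE on GRCm38. Reads of overlapping genes on the same strand, as for Ramp2 and Vps25, Rasip1 and Izumo1 or Egfl7 and Gm20532, could not be told apart here. Whether counting used the strand is not given in the sources used here. This leaves uncertain, among others, Eng and Fpgs, Egfl7 and Agpat2, Plvap and Gtpbp3, Nos3 and Atg9b, and Esm1 and Gzmk.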

Additional observations from a re-analysis of the deposited data

Results flagged for a closer look

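4 of 58 groups of 4 tumours had 1 tumour far from the other 3, by the ratio of its gap to the range of the group, in the 28 tested endothelial genes and their summed level. Chance gives about 1 in 20. Flt1 was at 12.9 CPM in shC tumour 3, against 4.52 to 5.78 CPM in the other shC tumours. Flt4 was at 9.39 CPM in shTAZ tumour 3, against 12.96 to 13.6 CPM in the other shTAZ tumours. Esm1 was at 27.1 CPM in shC tumour 1, against 1.72 to 5.22 CPM in the other shC tumours. Dll4 was at 58.5 CPM in shTAZ tumour 1, against 20.03 to 26.4 CPM in the other shTAZ tumours.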

How the results depend on the processing

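No endothelial gene passed the threshold in tumours, in cultures or in the difference between them under any of the alternatives run. In tumours, 465 of 527 log2 fold changes of these genes under an alternative kept the direction given above and 62 took the other. The count of genes called over the whole table moved, to 4 with DESeq2 and to 6 within the tumours of prefix FM. With 1 surrogate variable in the tumour model the number of endothelial genes below 0 was 12, and the log2 fold changes that turned sign were Pecam1 0.15, Esam 0.038, Egfl7 0.18, Robo4 0.16, Erg 0.31, Ramp2 0.11, Plvap 0.36, Nos3 0.0095, Cd34 0.11, Apln 0.45, Esm1 0.69, Dll4 0.13 and Pdgfb 0.026. With library totals only they were Eng −0.016, Sox18 −0.020 and Nrp2 −0.015; with the code prefix as a term, Sox18 −0.068 and Plvap 0.0015. Within prefix FG they were Kdr 0.25, Eng −0.090, Aplnr 0.93, Nrp2 −0.27 and Pdgfb 0.25, and within prefix FM Pecam1 0.090, Cdh5 −0.40, Erg 0.049, Sox18 −0.60, Plvap 0.48, Apln 0.44, Esm1 1.39 and Vegfa −0.0092. Without the 3 tumours that held epidermal or urothelial genes they were Flt1 −0.16, Eng −0.044, Esam 0.043, Ramp2 0.22, Mmrn2 0.084, Aplnr 0.56, Nrp2 −0.074 and Pdgfb 0.24. The cause was not tested.

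With each tumour left out in turn, the number of endothelial genes below 0 ranged from 12 (without shC tumour 1) to 27 (without shC tumour 3), their median log2 fold change from −0.47 to 0.02, and the log2 ratio of the summed level from −0.39 to 0.08. Log2 fold changes that turned sign for at least 1 tumour ranged as follows: Pecam1 −0.51 to 0.18, Cdh5 −0.26 to 0.28, Kdr −0.42 to 0.25, Eng −0.044 to 0.18, Esam −0.45 to 0.019, Egfl7 −0.47 to 0.18, Robo4 −0.46 to 0.17, Erg −0.93 to 0.40, Sox18 −0.30 to 0.27, Ramp2 −0.49 to 0.096, Plvap −0.24 to 0.39, Nos3 −0.57 to 0.019, Mmrn2 −0.44 to 0.052, Cd34 −0.63 to 0.14, Aplnr −1.003 to 0.22, Apln −0.42 to 0.52, Esm1 −1.33 to 0.79, Dll4 −0.80 to 0.16, Nrp2 −0.13 to 0.13, Pdgfb −0.43 to 0.077 and Vegfa −0.31 to 0.40.

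The replicate numbers do not pair the tumours by any label. Deviations of same-numbered tumours from their group means had correlations over genes of 0.22, 0.12, 0.32 and −0.01. For differently numbered tumours the correlations were −0.34 to 0.27, so the numbers did not set pairs apart. shTAZ tumour 1 was closer to shC tumour 4 (0.27) than to shC tumour 1 (0.22). The replicate block gave 0 calls in tumours, with Sox18 −0.087 and Plvap 0.036 on the other side of 0. In cultures the replicate block gave 6 calls over all genes and 0 of the 8 endothelial genes, with 1 of the 8 below 0 and log2 fold changes of Nos3 0.21 and Dll4 0.79. In the difference between settings the block put Flt1 0.0077 and Apln 0.013 on the other side of 0, and no endothelial gene was called with or without it.

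In cultures the count of called genes was 3 with DESeq2, 2 with no filter, 1 with at least 10 counts in every library, 3 with the surrogate variable taken from CPM (an alternative chosen after seeing the data, where the median of the 8 genes was 0.33) and 0 to 1 with a culture left out. Without the surrogate variable 0 of the 8 genes lay below 0, with Nos3 0.13, Apln 0.075 and Dll4 0.72, and with at least 10 counts 1 did, with Dll4 0.031. Dll4 was 0.33 with the CPM-based variable and Eng −0.0021 with no filter. With a culture left out, and no surrogate variable, the median was 0.20 to 0.48 and 1 to 2 genes lay below 0. Signs were compared with the main fit, which held the surrogate variable, so these fits differ from it in 2 ways. Genes whose sign differed ranged as follows: Eng −0.12 to 0.18, Egfl7 −0.033 to 0.58, Nos3 −0.30 to 0.82, Ecscr −0.032 to 0.64, Apln −0.21 to 0.41 and Dll4 0.24 to 1.34. Dll4 was above 0 without the surrogate variable whether or not a culture was left out. For the difference between settings, with any of the 14 libraries left out, 5 to 8 genes lay below 0 with a median of −0.64 to −0.18, and the ranges were Flt1 −0.29 to 0.36, Eng −0.12 to 0.18, Nos3 −1.08 to 0.060 and Apln −0.59 to 0.47. Depth limits Tek, Sox7, Calcrl and Ptprb, which had 9 counts or fewer in each tumour other than shC tumour 1 and for which no fold change is given. Lyve1, also without a fold change, had at most 7 counts in any tumour and 6 in shC tumour 1, the most deeply sequenced.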

Other observations

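Other cell types of the tumour were read from lists of their genes, and 0 of these genes passed the test. Of 11 macrophage genes 9 were tested, 7 with a log2 fold change above 0 and 2 below, with a median of 0.32, where 51.5% of all tested genes lay below 0. C1qa, a complement component of macrophages, averaged 3741 ± 921 CPM in shTAZ tumours and 2575 ± 859.9 CPM in shC tumours (SD, n = 4 each). The summed macrophage level was 7444 ± 1134 CPM in shTAZ tumours and 5430 ± 1829 CPM in shC tumours (SD, n = 4 each), and the groups overlapped. All 6 tested fibroblast genes lay below 0, with a median of −0.25. The sum of the 8 listed fibroblast genes was lowest in shC tumour 1, at 1567 CPM, and in shTAZ tumour 1, at 1618 CPM. Both were among the tumours with the highest endothelial sums, as was shC tumour 4, where the fibroblast sum was 3580 CPM. All 8 genes of the 4T1 epithelium lay below 0, with a median of −0.71, and 2 of 8 (Krt19 and Cldn7, named after their values were seen) had an unadjusted p under 0.05, against 3.98% of all tested genes. Platelet genes, some of which endothelial cells share, summed to 113.7 to 348.1 CPM in shTAZ tumours and 136.9 to 286.5 CPM in shC tumours.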
